A study of Mus musculus with 6 samples.

Results

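Genes of the muscle response to loss of the nerve, namely Hdac4, Hdac9, Dach2, Runx1, Ncam1, Scn4a, Clcn1, Kcnn3 and Gap43, were followed in muscle that lacks the proteasome subunit Rpt3. They were chosen by name and matched by symbol to the probes of a mouse whole-genome array. Of these 9 genes, 6 had a probe named for them alone, and all 6 were bright enough to be tested, among 14732 tested genes in all. Hdac4 and Clcn1 had no probe with a name here. The probe that carries Gap43 is annotated to a second gene as well, Diras1, and was not read as Gap43. No value is therefore given for these 3 genes.

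When a motor nerve is cut or falls silent, the muscle fiber reopens part of its embryonic program. Class IIa histone deacetylases such as HDAC4 and HDAC9 hold back genes by binding MEF2 transcription factors, and HDAC4 represses Dach2, a corepressor that itself restrains the gene of myogenin. Myogenin in turn activates the acetylcholine receptor genes and the atrophy ubiquitin ligases. Along the membrane, denervated fibers are known to gain the adhesion molecule NCAM and the small-conductance potassium channel encoded by Kcnn3, and to lose chloride conductance. RUNX1 is a transcription factor that rises in denervated muscle and limits wasting.

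RNA came from female mice at 6 weeks of age, 3 labelled Rpt3 null and 3 labelled control, and was hybridized with 1 dye. The labels do not say whether each array is a separate mouse, so p-values measure the spread between these 6 arrays, which may be technical. The groups are called Rpt3-/- and Rpt3+/+ mice here, after the paper. Both groups carry Cre recombinase driven by the fast myosin light chain promoter Mlc1f, which acts in skeletal muscle fibers and, in adults, in fast-twitch fibers. The labels give floxed Rpt3 as the strain of both groups, whereas in the paper the controls are Mlc1f-Cre with wild-type Rpt3. The labels name the tibialis anterior and the paper the gastrocnemius as the muscle. Deletion by this Cre is incomplete, and nerve, vessels and infiltrating cells of the whole muscle are not its target. Genes were called at an adjusted p under 0.05 from limma, a linear model with shared variance. Of 14 tested genes listed as fast-fiber markers, 1 was higher (Myh1) and 3 were lower (Pygm, Myl1 and Actn3) in Rpt3-/- mice. With cyclic loess scaling 10 were lower, and 13 when centred on Actb. The list includes Ckm and Acta1, which are not restricted to fast fibers. Some probes were so bright that a change could go unseen, such as Acta1 at a mean log2 intensity of 14.80 against 14.82 in the controls. Of 9 slow-fiber markers 7 were higher (4 when centred on Actb). In whole muscle, fewer cells of a type and less RNA per cell cannot be told apart.
The share of probes above background was 69.2% to 72.7% in Rpt3-/- muscle and 57.0% to 74.5% in Rpt3+/+ muscle, with the second Rpt3+/+ array the dimmest. Psmc4, which encodes Rpt3, had a log2 fold change of -1.17 (standard error, SE, 0.13, limma adjusted p = 0.000307). The sources used here do not give where its probe lies relative to the floxed part. Values are log2 intensities after background correction and quantile normalization, and fold changes are Rpt3-/- over Rpt3+/+. The levels of different genes cannot be compared, because each probe binds with its own strength.

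Ncam1 was called higher and Dach2 lower in Rpt3-/- mice, and the other 4 measured genes were not called. Dach2 passed the filter on brightness only through the Rpt3+/+ arrays, where it was higher. Ncam1 passed by 1 of its 3 probes, which was the brightest only through its Rpt3-/- values. It passed by neither of the others, with which 0 of the 6 genes were higher. By the brightest probes, 1 of the 6 genes was called higher, where 12.7% of all tested genes were, and 1 was called lower, where 6.56% of all tested genes were. The median log2 fold change of the 6 genes was -0.00043, against -0.013 for all tested genes. With 6 genes these shares do not set the members apart from other genes.

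**Figure D1:**
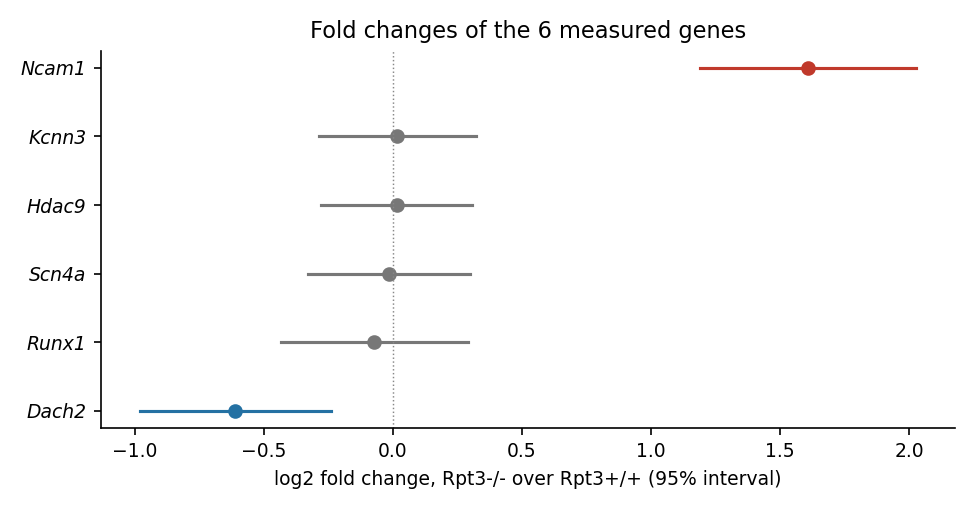
Log2 fold change of the 6 measured genes, Rpt3-/- over Rpt3+/+ (x axis), with the 95% interval from limma as a line. Ncam1 lies at 1.61 (red, higher) and Dach2 at -0.61 (blue, lower), whereas Kcnn3, Hdac9, Scn4a and Runx1 (gray) lie between -0.07 and 0.02 with intervals that span 0.

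Among the regulators, Dach2 encodes a nuclear corepressor of the dachshund family. Its log2 intensity was 6.22, 6.12 and 6.61 in Rpt3-/- muscle and 6.70, 7.08 and 7.0 in Rpt3+/+ muscle. All 3 Rpt3-/- values lay below all Rpt3+/+ values, with the third Rpt3-/- array and the first Rpt3+/+ array close to each other. The mean was 6.32 ± 0.26 (SD, n = 3) against 6.93 ± 0.20 (SD, n = 3) in the controls, which gave a log2 fold change of -0.61 (SE 0.17, limma adjusted p = 0.0279) or 1.53-fold lower. The probe was dim. It was above background on 1 of the 3 Rpt3-/- arrays and on 3 of the 3 Rpt3+/+ arrays, so that the size of the fall is uncertain. Dach2 thus passed the filter of 3 arrays above background only through the Rpt3+/+ arrays, where it was higher. Its p-value makes no allowance for that. With no filter on dim probes the adjusted p from limma was 0.0292. With plain background subtraction the log2 fold change was -1.45 (limma adjusted p = 0.0436). The call was lost without the first Rpt3-/- array (log2 fold change -0.56, limma adjusted p = 0.114), without the second (log2 fold change -0.50, limma adjusted p = 0.108) and without the third Rpt3+/+ array (log2 fold change -0.58, limma adjusted p = 0.119).

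The gene that Dach2 is known to restrain, Myog, was measured on the same arrays. Myog encodes myogenin, a basic helix-loop-helix factor that binds E-boxes. Its log2 intensity was 9.11, 8.46 and 9.05 in Rpt3-/- muscle and 7.42, 8.03 and 7.79 in Rpt3+/+ muscle. The groups did not overlap, and the log2 fold change was 1.12 (SE 0.21, limma adjusted p = 0.00443). Dach2 and Myog thus differed between the groups in opposite directions.

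The 250 bases before the annotated starts of Dach2 and Myog are shown because these are the regulator that fell and its known target. They are from RefSeq (GRCm38.p6), run 5′ to 3′, and have E-boxes (CANNTG, which reads alike on both strands) in capitals. Dach2 has 2 annotated starts here.
Dach2, first start, chrX:113297260-113297509, plus strand: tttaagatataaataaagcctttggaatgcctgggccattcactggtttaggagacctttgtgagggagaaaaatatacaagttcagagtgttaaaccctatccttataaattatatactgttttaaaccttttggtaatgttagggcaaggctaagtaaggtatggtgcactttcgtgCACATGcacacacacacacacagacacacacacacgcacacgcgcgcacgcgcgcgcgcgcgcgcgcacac
Dach2, second start, chrX:113298006-113298255, plus strand: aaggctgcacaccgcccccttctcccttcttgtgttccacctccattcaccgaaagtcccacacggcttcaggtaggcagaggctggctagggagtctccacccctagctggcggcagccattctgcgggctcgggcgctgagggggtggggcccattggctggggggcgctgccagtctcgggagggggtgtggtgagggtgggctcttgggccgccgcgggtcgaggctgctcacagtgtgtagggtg
Myog, chr1:134289754-134290003, plus strand: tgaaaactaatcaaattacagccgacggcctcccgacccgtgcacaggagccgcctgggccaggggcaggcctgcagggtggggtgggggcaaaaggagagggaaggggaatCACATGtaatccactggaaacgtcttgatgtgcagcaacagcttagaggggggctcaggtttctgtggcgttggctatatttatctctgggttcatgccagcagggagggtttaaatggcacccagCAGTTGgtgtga
The window of Myog held 2 E-boxes, at 138 to 133 and at 12 to 7 bases before the start. The window of the first Dach2 start held 1, at 71 to 66 bases before it, beside a stretch of alternating C and A, and that of the second start held 0. An E-box is common, found in 66.2% of 32851 windows of this length. A match is a run of letters and not a measured binding site.

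Hdac9 encodes a class IIa deacetylase that, like HDAC4, binds MEF2. Its log2 intensity was 7.01, 6.81 and 6.80 in Rpt3-/- muscle and 6.82, 6.99 and 6.76 in Rpt3+/+ muscle. The groups overlapped fully, and the log2 fold change was 0.01 (95% interval -0.28 to 0.31, limma adjusted p = 0.954). Runx1 had log2 intensities of 9.04, 9.21 and 9.18 in Rpt3-/- muscle and of 9.32, 8.87 and 9.45 in Rpt3+/+ muscle. The Rpt3-/- values lay within the range of the Rpt3+/+ values, of which the dim second array was the lowest. The log2 fold change of Runx1 was -0.07 (95% interval -0.43 to 0.29, limma adjusted p = 0.810). On the scale of these values the intervals hold log2 rises of up to 0.31 for Hdac9 and 0.29 for Runx1. Hdac9 was dim, with background-subtracted intensities from 44.5 on the second Rpt3+/+ array to 79.3 on the first. The offset used in background correction draws fold changes of such genes toward 0. The interval of Hdac9 therefore cannot exclude a larger rise of its RNA. With plain background subtraction the log2 fold change of Hdac9 was 0.03 (limma adjusted p = 0.937).

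**Figure D2:**
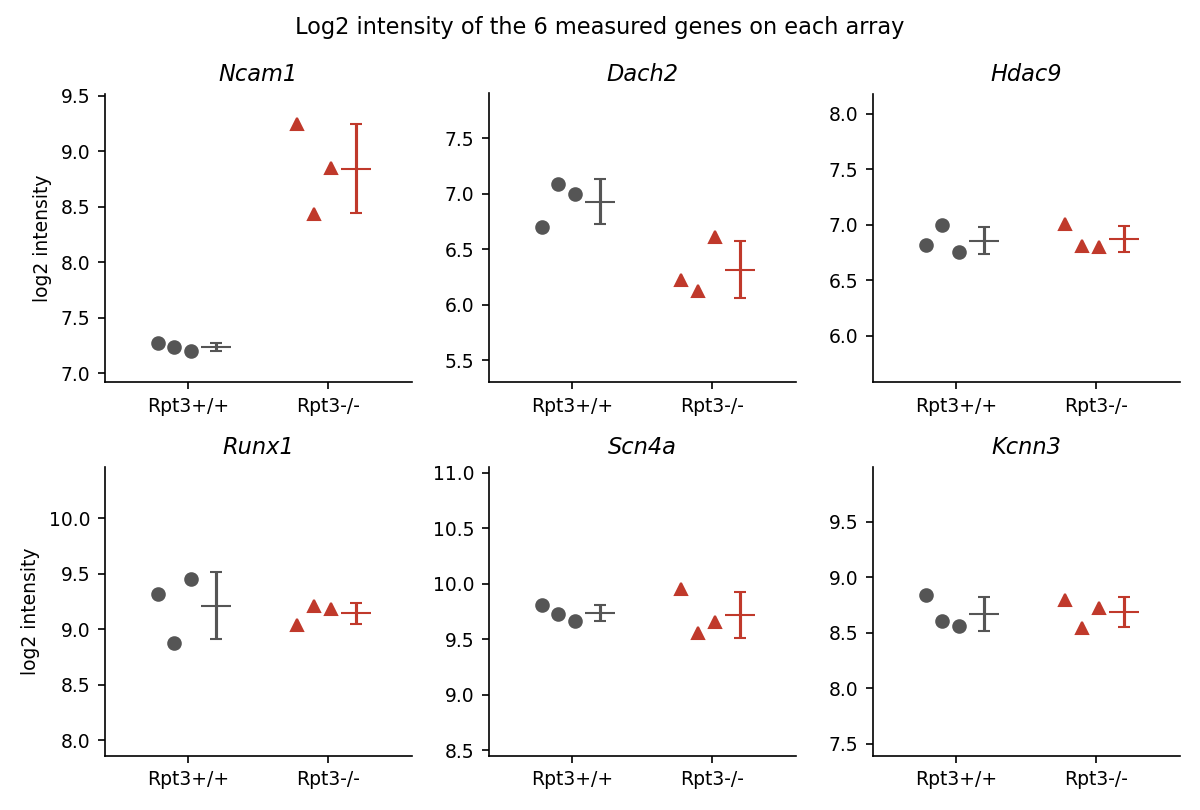
Log2 intensity (y axis, an equal span of 2.6 in every panel) of the 6 measured genes on each array. Circles in gray show Rpt3+/+ and triangles in red Rpt3-/-, 3 arrays each, and the bars beside them the mean ± SD. For Ncam1 (by probe GE119133) and Dach2 the groups do not overlap, and for the other 4 genes they do. The share of all tested genes whose groups do not overlap was not counted, so this does not set the members apart.

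Ncam1 encodes the neural cell adhesion molecule, which is spread over the whole membrane of embryonic and denervated fibers and is confined to the junction in innervated adult muscle. It is also made by satellite cells, Schwann cells and motor axons. By its brightest probe, GE119133, the log2 intensity was 9.24, 8.43 and 8.85 in Rpt3-/- muscle and 7.27, 7.23 and 7.20 in Rpt3+/+ muscle. Brightness was the mean over all 6 arrays. In Rpt3+/+ muscle alone this probe was the dimmest of the 3, with a mean of 7.23 against 7.49 and 7.60. It was thus picked through its Rpt3-/- values, and its p-value makes no allowance for that choice. Every Rpt3-/- value was far above the Rpt3+/+ values, and the Rpt3-/- arrays lay farther from each other than the controls did. The mean was 8.84 ± 0.40 (SD, n = 3) against 7.23 ± 0.037 (SD, n = 3) in the controls, which gave a log2 fold change of 1.61 (SE 0.19, limma adjusted p = 0.000381) or 3.05-fold higher. All 6 spots were above background. By adjusted p Ncam1 ranked 247 among the 14732 tested genes.
The other probes of Ncam1 did not pass. Probe GE1490402 had log2 intensities of 8.0, 7.67 and 8.05 in Rpt3-/- muscle and of 7.62, 7.42 and 7.45 in Rpt3+/+ muscle. Here too the groups did not overlap, but the log2 fold change was 0.41 (SE 0.14, limma over probes adjusted p = 0.0766). Probe GE32914 had 7.54, 7.50 and 7.18 in Rpt3-/- muscle and 7.75, 7.51 and 7.54 in Rpt3+/+ muscle, a log2 fold change of -0.19 (SE 0.14, limma over probes adjusted p = 0.405). With the mean of the 3 probes the log2 fold change of Ncam1 was 0.61 (limma adjusted p = 0.0127).
Within each array, the log2 intensity of GE119133 could be set against that of GE32914. The difference GE32914 minus GE119133 was -1.70, -0.94 and -1.67 in Rpt3-/- muscle and 0.48, 0.27 and 0.34 in Rpt3+/+ muscle, and the groups did not overlap. The shift between the groups was -1.80 (two-sided exact permutation test, p = 0.1, the smallest that 3 arrays against 3 allow). The difference GE1490402 minus GE119133 shifted by -1.20 and GE1490402 minus GE32914 by 0.60, each with the same p of 0.1 from the exact permutation test. The 3 pairs were not adjusted, since none can pass. On these arrays the probes recorded unequal changes. Ncam1 is spliced into many forms, but the sources used here do not give which of them each probe reads.

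**Figure D3:**
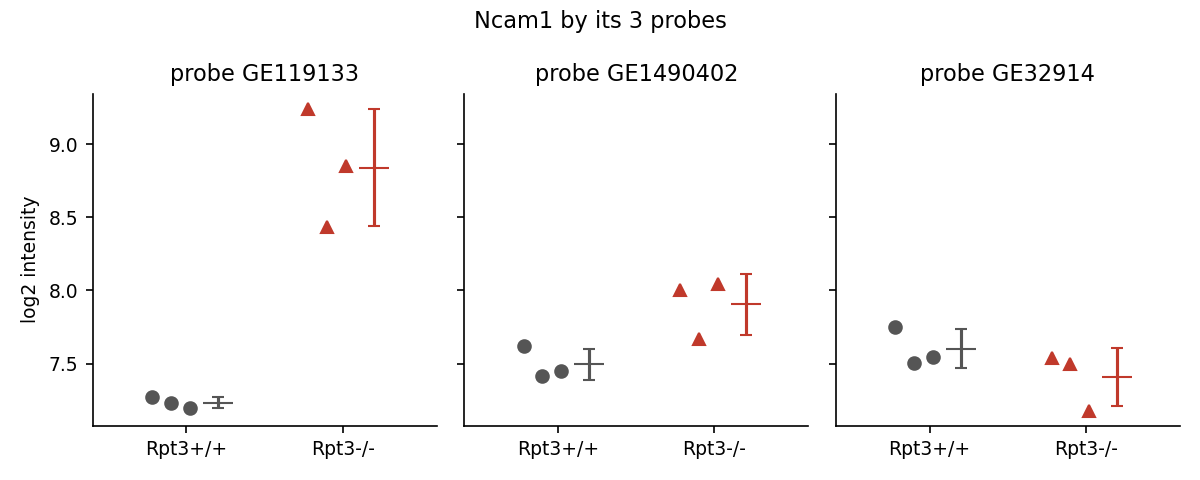
Log2 intensity (y axis, shared) of the 3 probes of Ncam1 on each array, with Rpt3+/+ arrays as gray circles, Rpt3-/- arrays as red triangles and the mean ± SD beside them. The groups lie widely apart for GE119133, narrowly apart for GE1490402, and overlap for GE32914.

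Markers of Schwann cells and satellite cells, which make NCAM, and of macrophages were read on the same arrays. Of 13 tested Schwann cell markers 0 were called by limma and 0 after adjustment by the methods' t-test, the unpaired test of the paper run on the same values, and by limma with no adjustment (p under 0.05) 1 was higher. The median log2 fold change of these markers was 0.08, and 1 was called higher without the second Rpt3-/- array or the second Rpt3+/+ array. Centred on Actb 11 were lower. Sox10, which defines the lineage, was at 0.00. The summed intensity of the list was 6496 to 6695 in Rpt3-/- muscle and 6188 to 6793 in Rpt3+/+ muscle, so that the ranges overlapped. Pax7, a standard marker gene of satellite cells, had a named probe but was not above background on enough arrays to be tested. Of 9 tested satellite cell markers 1 was higher (Itga7 at 0.87) and 1 lower (Pax3 at -1.34), with Myf5 at 0.44 (limma adjusted p = 0.106). Of these markers 0 were higher without Rpt3-/- array 1 or 3, 2 were higher without Rpt3-/- array 2 or Rpt3+/+ array 2, and 2 were lower without Rpt3+/+ array 1. These 9 genes had a median log2 fold change of 0.13, and by limma with no adjustment (p under 0.05) 3 were higher and 2 lower. The summed intensity was 2858 to 3042 in Rpt3-/- muscle and 3459 to 4150 in Rpt3+/+ muscle, a sum to which the Pax3 probe gave the largest part in the controls, with a mean log2 intensity of 9.39 in Rpt3-/- and 10.73 in Rpt3+/+ muscle. Macrophage and myeloid markers moved with the groups, with 9 of 12 higher, a median log2 fold change of 1.34 and summed intensities of 6756 to 10099 in Rpt3-/- muscle against 2732 to 3268 in Rpt3+/+ muscle. The paper reports fibers with central nuclei and some developmental myosin heavy chain in Rpt3-/- gastrocnemius, and from the latter proposes that fibers regenerate. The part of regenerating fibers, Schwann cells, motor axons, satellite cells or macrophages in the rise of Ncam1 was not tested.

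Scn4a and Kcnn3, the measured ion channel genes among the members, stayed within the spread of the arrays. Scn4a encodes the pore of the adult skeletal muscle sodium channel, which carries the action potential. Its log2 intensity was 9.95, 9.55 and 9.65 in Rpt3-/- muscle and 9.81, 9.73 and 9.67 in Rpt3+/+ muscle. The first Rpt3-/- array was the highest and the second the lowest of all 6. The log2 fold change was -0.02 (95% interval -0.33 to 0.30, limma adjusted p = 0.954). Kcnn3 encodes SK3, a calcium-activated potassium channel that is found in denervated and immature fibers and gives rise to the afterhyperpolarization. Its log2 intensity was 8.80, 8.54 and 8.72 in Rpt3-/- muscle and 8.84, 8.60 and 8.56 in Rpt3+/+ muscle. The groups overlapped, and the log2 fold change was 0.02 (95% interval -0.29 to 0.32, limma adjusted p = 0.947). Before normalization the background-subtracted intensity of Kcnn3 ran from 212 on the dim second Rpt3+/+ array to 509 on the first.

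β-actin is a common reference for RNA levels. Its gene Actb had a log2 fold change of 0.45 (limma adjusted p = 0.0294), and centring each array on it moved the median over all tested genes from -0.01 to -0.72. On that scale Ncam1 was still called higher at 0.92 and Dach2 lower at -1.41. Hdac9 at -0.75, Runx1 at -0.66, Kcnn3 at -0.62 and Scn4a at -0.55 were then called lower, beside a median over all genes of -0.72.

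Other genes of the same pathways were counted in hand-written lists. Of 29 tested genes of the class IIa deacetylase and myogenin pathway, 5 were higher and 0 lower, against 3 higher and 17 lower when centred on Actb. By limma with no adjustment (p under 0.05) 7 were higher and 2 lower, and 3 were called lower without the first Rpt3+/+ array. Besides Myog the higher genes were the following. Cdkn1a, which encodes the cell cycle inhibitor p21, and Fbxo32, the gene of the ubiquitin ligase atrogin-1, each rose by 1.92 on the log2 scale (adjusted p = 0.000258 and 3.31e-05 from limma). Gadd45a, a stress gene induced by denervation through HDAC4, was at 1.75 (limma adjusted p = 2.93e-05), and Myf6, a myogenic factor of mature fibers, at 0.51 (limma adjusted p = 0.0272). The deacetylase genes themselves were not called, with Hdac5 at 0.16, Hdac7 at 0.00 and Hdac3 at -0.34, and neither were Mef2a at -0.17, Mef2c at -0.18 and Mef2d at 0.13. Dach1, the paralog of Dach2, was at -0.34 (limma adjusted p = 0.0954). The median of the list was -0.01, that of all genes.
Among 5 tested genes of the RUNX family and its partners, 1 was lower. This was Cbfb, which encodes the subunit that RUNX proteins need for stable DNA binding, with a log2 fold change of -0.86 (SE 0.14, limma adjusted p = 0.00233). It averaged 10.05 ± 0.09 (SD, n = 3) without Rpt3 against 10.91 ± 0.20 (SD, n = 3) in the controls. Centred on Actb, 4 of the 5 were lower.

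Of 16 tested genes of the acetylcholine receptor and the junction, 6 were higher and 0 lower, against 1 higher and 9 lower when centred on Actb. Chrng, the fetal receptor subunit, had a fitted log2 fold change of 2.90 (limma adjusted p = 5.14e-05), whose size is uncertain because it was above background on 1 of the 3 Rpt3+/+ arrays. It passed the filter only through the Rpt3-/- arrays, where it was higher, and its p-value makes no allowance for that. With the filter on all 6 arrays, 5 of 13 tested genes of this list were higher. Chrna1 was at 0.66, Chrnb1 at 0.68 and the adult subunit gene Chrne at 0.55, and the other higher genes were Erbb3 at 0.85 and Colq at 0.78. The subunit gene Chrnd, at 0.32 (limma adjusted p = 0.204), was not called. Neither was Musk, the receptor kinase of the junction, at 0.17. The list's count fell to 1 higher with Rpt3-/- array 1 or 3, or Rpt3+/+ array 3, left out, and 1 gene was lower without Rpt3+/+ array 1.

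Around Scn4a, of 10 other tested voltage-gated sodium channel genes 2 were lower and 0 higher, against 8 lower when centred on Actb and 1 with median centring. Scn4b, a β subunit that shapes resurgent current, averaged 9.74 ± 0.14 (SD, n = 3) without Rpt3 against 11.12 ± 0.29 (SD, n = 3) in the controls, a log2 fold change of -1.37 (limma adjusted p = 0.00043). Without the first Rpt3-/- array 1 of the 10 was lower.
Of 26 other tested potassium channel genes 4 were lower and 0 higher, and by limma with no adjustment (p under 0.05) 10 were lower and 0 higher. Centred on Actb 26 were lower. Their median log2 fold change was -0.26. Kcnc1, a fast delayed rectifier, was at -1.14 (limma adjusted p = 0.000467), Abcc9, the sulfonylurea receptor SUR2 of the ATP-sensitive channel, at -1.04 (limma adjusted p = 0.00278), Kcna7 at -0.68 and the β subunit gene Kcnab1 at -0.57. Other small-conductance or intermediate-conductance genes of the Kcnn3 family were not called, with Kcnn1 at -0.34 and Kcnn4 at -0.20. The count of lower genes was 2 without the third Rpt3+/+ array and 9 without the second.
Of 12 tested genes of the calcium channel and calcium release, 7 were lower and 0 higher, with a median log2 fold change of -0.50. The junctophilins Jph2 and Jph1, which hold the tubules to the sarcoplasmic reticulum, were at -1.20 and -1.14, Cacng6 at -0.87 and Cacna1s, the voltage sensor of contraction, at -0.81. Centred on Actb 12 were lower. The count was 4 without the first Rpt3-/- or the third Rpt3+/+ array. In place of Clcn1, which was not measured, 9 other chloride channel genes were tested, of which 2 were higher and 2 lower, against 0 higher and 6 lower when centred on Actb. Clcn4 was at -0.78 and Clcn3, an endosomal exchanger, at -0.50, while Clic4 was at 0.75 and Ano6 at 0.61. The 2 lower genes were not called without the first Rpt3-/- or the third Rpt3+/+ array, and 1 was called with Rpt3-/- array 2 or 3, or Rpt3+/+ array 2, left out. Among the higher genes, 1 was called without the third Rpt3+/+ array.
Of 10 tested genes of the sodium-potassium pump and of proteins that anchor channels, 3 were higher and 0 lower, against 2 higher and 7 lower when centred on Actb. Ankrd1, a stress-responsive ankyrin-repeat protein of the sarcomere and nucleus, did not exceed background in Rpt3+/+ muscle. It thus passed the filter only through the Rpt3-/- arrays. The level of Ankrd1 was at least 3.71-fold higher in the mutants (limma adjusted p = 0.000176). This is a bound, taken over the dimmest detected probe of each array, or over the gene's own signal where that was brighter. Atp1b4, a muscle protein of the pump's β family, was at 1.87 (limma adjusted p = 9.06e-05). Without the first Rpt3+/+ array 2 genes of this list were lower.

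**Figure D4:**
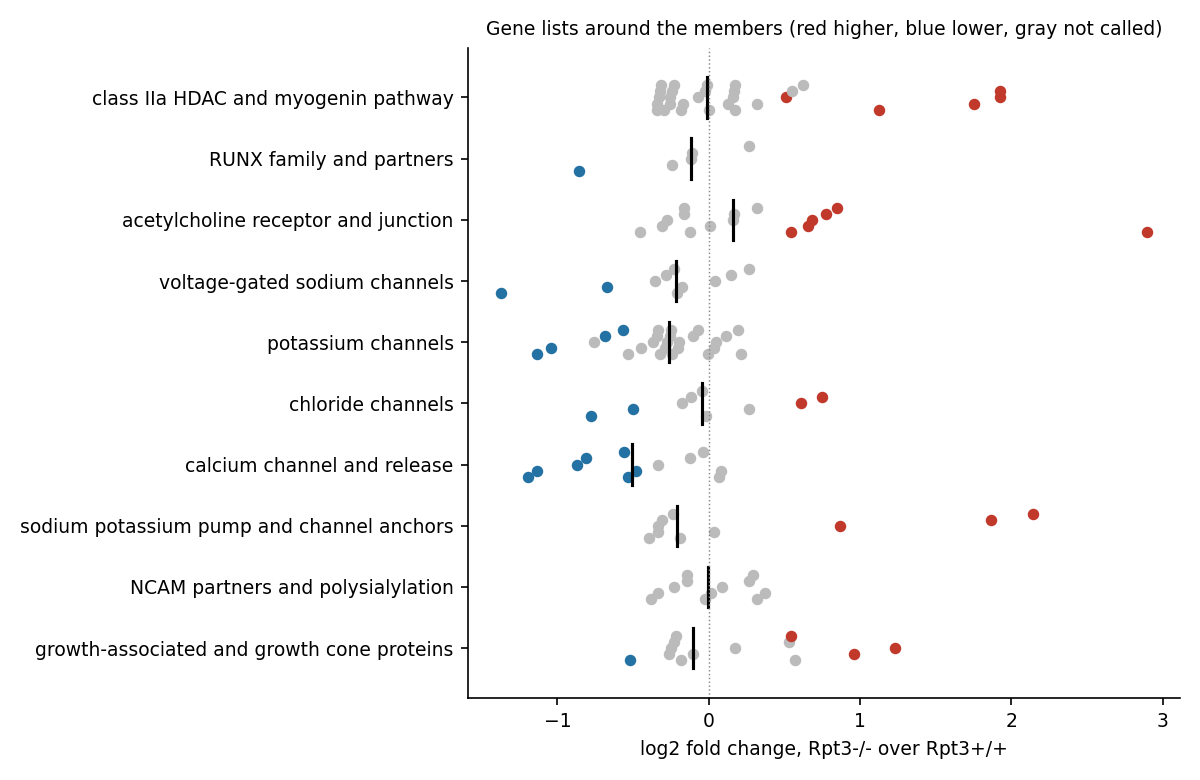
Log2 fold change (x axis) of each tested gene in 10 hand-written lists (rows), with red for genes called higher, blue for lower and gray for not called, and a black line at the median of the list. Called potassium, sodium and calcium channel genes lie to the left of 0, and called genes of the receptor and of the deacetylase and myogenin pathway to the right, in the quantile-normalized values. Vertical offsets within a row carry no meaning.

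Partners of NCAM were counted next. Of 12 tested genes, among them other cell adhesion molecules and St8sia4, an enzyme that adds polysialic acid, 0 were called by limma and 0 by the methods' t-test after adjustment, and 2 were higher and 0 lower by limma with no adjustment (p under 0.05). Centred on Actb 8 were lower. The lowest adjusted p was that of Cdh15, the M-cadherin of satellite cells, at 0.32 (limma adjusted p = 0.113). Gap43, the growth-associated protein of the list, could not be read, but 13 other growth-associated and growth cone genes were tested. Of these 3 were higher and 1 lower, against 0 higher and 8 lower when centred on Actb. Basp1, a membrane protein related in function to GAP-43, changed by a log2 fold of 0.96 (limma adjusted p = 0.0166) and Stmn1, which destabilizes microtubules, of 0.54 (limma adjusted p = 0.0104). Sprr1a, which is induced in injured neurons and in stressed muscle, did not exceed background in Rpt3+/+ muscle and passed the filter only through the Rpt3-/- arrays. The level of Sprr1a was at least 1.60-fold higher in the mutants (limma adjusted p = 0.00146). Calm3, a calmodulin gene, was at -0.52 (limma adjusted p = 0.015). The count of higher genes was 1 with Rpt3-/- array 3 or Rpt3+/+ array 3 left out, and Calm3 was not called without the second Rpt3-/- or the third Rpt3+/+ array. Of 5 tested axon and neuron markers 0 were called by limma and 0 by the methods' t-test after adjustment, and 1 was higher by limma with no adjustment (p under 0.05). Without the second Rpt3+/+ array 1 was called higher.

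The genes with the closest profiles over the 6 arrays were found by the root mean square difference of log2 values, each gene centred on its own mean. For Ncam1 these were Plac8 with a difference of 0.10, Mt2 with 0.12 and Bst2 with 0.12, whose log2 fold changes were 1.69, 1.75 and 1.49. For Dach2 they included Srf with 0.05 and Tm7sf2 with 0.07, whose log2 fold changes were -0.53 and -0.62. The nearest genes of Hdac9, Runx1, Scn4a and Kcnn3, which were Shprh, Fancg, Irf2bp1 and Tmem134, followed differences between arrays within a group, at 0.03 to 0.04. These are descriptions over 6 arrays that share 1 contrast.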

How the data were processed

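Muscle RNA in 3 Rpt3-/- and 3 Rpt3+/+ samples was measured on 1-colour CodeLink arrays. The deposited scanner reports, which the authors made with the CodeLink Expression Analysis software (version 5.0.0.31312), hold each spot's intensity, local background and quality flag, not normalized between arrays. A deposited value table holds intensities that the authors brought to 1 common distribution. Of 34967 transcript probes 21615 had 1 symbol in the platform annotation (Scn4a was among 536 named by accession instead), and 681 had several and were left unnamed. Background correction (normexp, offset 50) used limma 3.58.1 under R 4.3.3, 1260 control spots and masked or contaminated spots were dropped, and arrays were quantile normalized. The offset draws fold changes of dim genes toward 0. Genes entered the test by their brightest probe if it exceeded background on 3 or more arrays, and were called at a Benjamini-Hochberg adjusted p under 0.05 over 14732 genes. The methods' t-test is Student's unpaired test, 1 of those in the paper. Named genes were the 9 members, Psmc4 and Actb, in each list up to 4 called genes of largest change and the gene of lowest adjusted p, and the 3 nearest profiles; other list genes were named after their values were seen, and a few named by the rule are left unreported. The members and lists were chosen with earlier results of these data known. The steps were tested on simulated data. Alternatives changed the background correction, scaling, filter, probe rule, test and arrays. Sample numbers were not taken to pair the groups. Python 3.11.15 read the sequences. The number of arrays limits the precision.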

Additional observations from a re-analysis of the deposited data

How the results depend on the processing

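Over 20 alternatives, Ncam1 was called higher in 20, with log2 fold changes from 0.61 to 2.07. All of these except the mean of probes, at 0.61, read the same probe, GE119133. The count therefore describes that probe and not the gene by its other probes. By the other probes of Ncam1, an alternative added after seeing the data, the gene was not called (0.41 for GE1490402 and -0.19 for GE32914), so that 0 members were higher. Dach2 was lower in all 19 alternatives that gave a value and called in 14. Besides the arrays named in the report, its call was lost with array weights (-0.65, limma adjusted p = 0.0545) and by the methods' t-test (adjusted p = 0.140), each of which left 0 members lower, and the filter on all 6 arrays removed the gene and also left 0. With the first or second Rpt3-/- array or the third Rpt3+/+ array left out, 0 members were lower, so that leaving out each array gave 0 to 1 lower and 1 higher. Centred on Actb 5 members were lower, and Hdac9 reversed to -0.75 and Kcnn3 to -0.62. Hdac9, Runx1, Scn4a and Kcnn3 were called in no other alternative.
Over all tested genes, 1870 were higher and 967 lower. Centred on Actb 328 were higher and 10332 lower, by the methods' t-test after adjustment 940 and 427, and with median centring 603 were lower. Leaving out each array gave 1086 to 2322 higher and 389 to 1445 lower, the lowest of each without the third Rpt3+/+ array. Without the third Rpt3-/- array 1153 were higher and 541 lower, and without the first 478 were lower. With the replicate number as a block 1723 were higher and 875 lower, and no member's call changed. The deviations of same-numbered arrays correlated at 0.13, -0.44 and 0.10, so that the numbers were not taken to pair the samples. The Dach2 probe was not above background on 2 of the 3 Rpt3-/- arrays, which limits how well its fold change is known.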

Other observations

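The probe annotated to both Gap43 and Diras1 belongs to no comparison of the report. Its log2 intensity was 8.96, 8.87 and 8.96 in Rpt3-/- muscle and 9.16, 9.25 and 9.23 in Rpt3+/+ muscle, and it was above background on all of them. The means were 8.93 ± 0.049 (SD, n = 3) and 9.21 ± 0.048 (SD, n = 3), and the values of the groups did not overlap. It was not tested, since its signal cannot be assigned to either gene.

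Other marker lists were read on the same arrays. Of 7 tested fibroblast markers 2 were higher, Pdgfra with a log2 fold change of 0.78 and Col3a1 with 0.55 (1 was called without the third Rpt3+/+ array and 0 when centred on Actb), and the summed intensity was 28305 to 29593 in Rpt3-/- muscle and 19184 to 22480 in Rpt3+/+ muscle. Of 7 tested lymphocyte markers 2 were lower, among them the B cell gene Cd79a at -0.64. Of the list 0 were called lower when Rpt3-/- array 1 or 3, or Rpt3+/+ array 3, was left out. Of 6 tested endothelial markers 0 were called by limma or by the methods' t-test after adjustment, and 1 was lower by limma with no adjustment (p under 0.05). Without the first Rpt3+/+ array 2 were called lower.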
